A study of Mus musculus with 24 samples.

Results

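C2C12 is a mouse myoblast line, that is, a line of muscle precursor cells that leave the cell cycle and fuse into contractile myotubes when they differentiate. The cells described here are NFIA-expressing C2C12 cells at day 7, set against NFIA-expressing C2C12 cells at day 0. They were chosen by their labels and are 6 of the 24 RNA-seq libraries of the study, 3 at each day, all with the treatment labelled as none. Of the other libraries, 3 of control C2C12 cells at day 7 and 3 at day 0, with the same treatment label, were used to test whether a change over time differed from that of control cells. The labels name no genotype for any of these 12 libraries beyond the expression of NFIA. How NFIA was introduced, which promoter drives it, whether the cells are 1 clone, and which medium either kind of cell was kept in are points not given in the sources used here. The labels do not say that replicates are separate cultures, so the p-values measure the spread between these libraries, which may be technical.

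NFIA belongs to the nuclear factor I proteins, transcription factors that bind DNA at TTGGC motifs, and it is known for acting with PPARgamma at the enhancers of brown fat cells. In fat cell formation, the early factors C/EBPbeta and C/EBPdelta switch on PPARgamma and C/EBPalpha, which maintain each other and turn on the genes of lipid storage. In muscle formation, Myod1 and Myf5 commit the cell, Myog starts terminal differentiation, and the genes of the sarcomere, the contractile unit, follow. Both programmes normally go with an exit from the cell cycle.

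Expression was given by the authors as FPKM, fragment counts corrected for the length of each transcript and for sequencing depth, for 37041 genes. The 13255 genes with at least 1 FPKM in at least 3 of the 6 libraries were tested. The 6 libraries listed 17984 to 19704 genes above 0, and the depth is unknown, since no read totals were given. Libraries of the same day correlated across genes at r = 0.975 to 0.988, and libraries of different days at 0.812 to 0.83. Of the summed FPKM, 166639 to 393312 per library belonged to a single entry, the microRNA mmu-mir-703. The sum of all other entries was 805226 to 1000797 at day 7, against 688120 to 738670 at day 0.

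In NFIA-expressing cells, most tested genes of the lists for the fat cell, lipid and mitochondrial metabolism and the sarcomere were higher at day 7. Most tested genes of the lists for cell division, matrix, cholesterol synthesis and the interferon response were lower. Fold changes are given as log2 of FPKM + 1, day 7 minus day 0, with the standard error of limma, and a gene is called at an adjusted p under 0.05 in limma. Of the 13255 genes tested, 8047 were called, which is 60.7% of them. Of these, 3818 rose (28.8% of those tested) and 4229 fell (31.9%). A change of at least 3 on the log2 scale was seen in 288 genes that rose and in 64 that fell. With every library rescaled to the same sum of FPKM without mmu-mir-703, 2431 genes rose and 6491 fell, and the median of all genes was -0.35, against -0.03 as deposited. The call held under that and 2 other scalings in 2423 genes that rose (18.3%) and 3935 that fell (29.7%). Their direction was checked under 1 scaling only: one sum for genes that rose, and median-of-ratios rescaling for genes that fell. Library values did not overlap, with day 7 above day 0, in 31.3% of the genes tested, and with day 7 below day 0 in 35.1%. Since more than 1 gene in 4 was called in each direction, the counts below are read against these shares. Of the genes tested, 586 were at or above 1 FPKM in all day 7 libraries and in none at day 0, and 396 the other way. Such genes entered the test only through the day at which they were high, so counts over a list describe its tested members and support nothing further. The more frequent direction of each list below was the same under each scaling, except for the NFI family and the epithelial markers, which had 1 gene called each way as deposited.

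**Figure D1:**
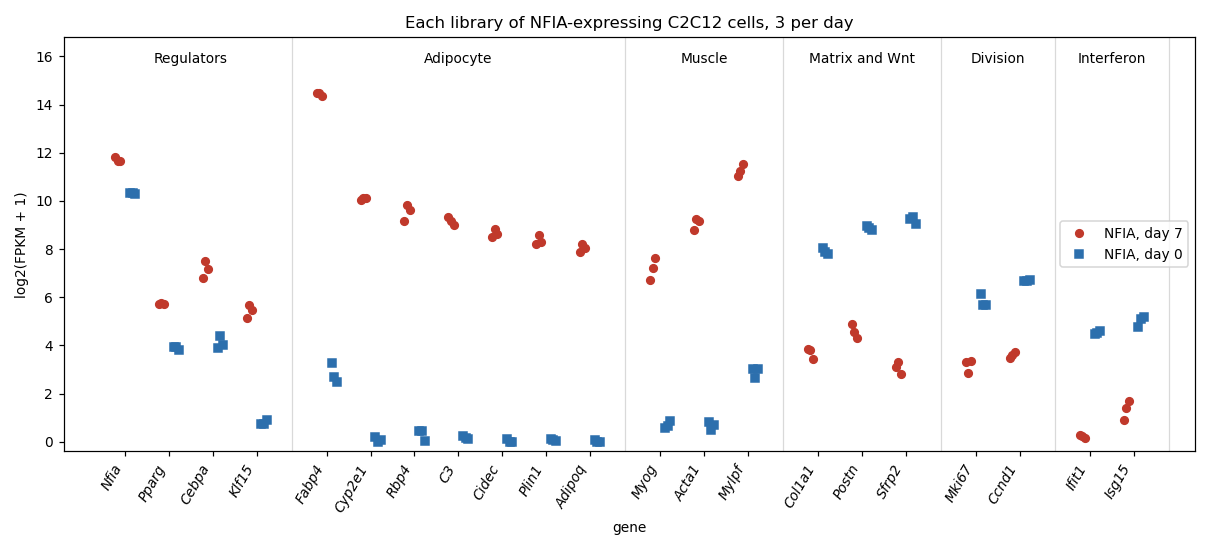
Each point is 1 library of NFIA-expressing cells, on an axis of log2(FPKM + 1), with the 3 day 7 libraries left of the 3 day 0 libraries for each gene. Day 7 lies above day 0 for the regulators, the adipocyte genes and the muscle genes shown, and below it for the matrix, Wnt, division and interferon genes. No gene shown has groups that overlap.

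The introduced factor itself was high at both days. Nfia (chr4:97234824-97868605 in mm9) had 3585, 3256 and 3189 FPKM in the 3 day 7 libraries, against 1283, 1273 and 1252 FPKM in the 3 day 0 libraries. All day 7 libraries lay above all day 0 libraries, a change of 1.40 ± 0.11 (adjusted p = 5.3e-05). Control cells averaged 1.33 ± 0.785 FPKM at day 7 and 0.66 ± 0.465 at day 0 (SD, n = 3 each), which fits the labels, and the introduced copy and the cells' own gene cannot be told apart in these values. Of the other family members, Nfic fell by 0.47 ± 0.11 (adjusted p = 0.0092), while Nfix (-0.21 ± 0.10, adjusted p = 0.12) and Nfib (0.13 ± 0.23, adjusted p = 0.65) were not called, and the sign of Nfib turned to -0.18 with the FPKM rescaled to one sum. With the replicate number as a block, Nfix was called lower (adjusted p = 0.029).

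Regulators of fat cell formation were higher at day 7. Of 19 tested adipogenic transcription factors (of 23 in the list), 13 rose and 0 fell, with a median change of 1.85. With the FPKM rescaled to one sum 4 of the 19 fell, and with the replicate number as a block 2 did. Pparg, the master regulator, had 52.0, 54.0 and 52.1 FPKM at day 7, against 14.3, 14.4 and 13.2 FPKM at day 0. The groups were far apart and each was tight, and the change was 1.84 ± 0.07 (adjusted p = 2.4e-06). Cebpa, its partner, had 111, 179.5 and 142 FPKM at day 7, against 13.9, 19.97 and 15.2 FPKM at day 0 (3.06 ± 0.20, adjusted p = 2.1e-05). Its lowest day 7 library was still well above its highest day 0 library.

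The early factors were less uniform. Cebpb had 28.1, 104 and 59.7 FPKM at day 7, against 8.02, 18.1 and 14.5 FPKM at day 0 (2.04 ± 0.49, adjusted p = 0.0099). Cebpd had 16.2, 43.0 and 33.3 FPKM at day 7, against 9.97, 22.3 and 17.7 FPKM at day 0 (0.81 ± 0.41), and it was not called (adjusted p = 0.13). For both genes replicate 1 was the lowest library at each day, and its file header carries an earlier date than replicates 2 and 3. Cebpd was called higher with the replicate number as a block (adjusted p = 0.00043) and without day 7 replicate 1 (adjusted p = 0.019). Klf15, a factor induced by glucocorticoids, rose by 4.65 ± 0.15, and the oxysterol receptor Nr1h3 by 4.41 ± 0.12. Thrsp, a nuclear protein of lipogenic cells, had 12.6, 18 and 13.8 FPKM at day 7, against 0.01, 0 and 0.01 FPKM at day 0.

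Factors listed as holding back fat cell formation mostly fell. Of 14 tested, 9 fell and 0 rose, with a median of -0.64, or -0.99 with the FPKM rescaled to one sum. In control cells 6 of the same 14 fell and 1 rose, with a median of -0.56. The change was more negative in NFIA-expressing cells in 6 of the 14 and more positive in 1. Wnt10b, a Wnt ligand that blocks Pparg, had 0.2, 0.27 and 0.12 FPKM at day 7, against 10.1, 13.2 and 13.3 FPKM at day 0. All day 7 libraries lay far below those of day 0 (-3.45 ± 0.12, adjusted p = 1.4e-06). Id3, an inhibitor of basic helix-loop-helix factors (-1.85 ± 0.28), and the growth factor Tgfb1 (-1.60 ± 0.10) fell as well. Id2, a relative of Id3, also fell (-1.53 ± 0.19), and whether Id2 holds back fat cell formation was not tested. Of 9 tested progenitor markers, 6 fell and 3 rose. The platelet-derived growth factor receptor Pdgfra had 3, 2.31 and 2.49 FPKM at day 7, against 13.9, 11.6 and 10.6 FPKM at day 0 (-1.85 ± 0.13, adjusted p = 2.3e-05), and Pdgfrb (-2.63 ± 0.08) and Cd34 (-1.92 ± 0.07) also fell. Mest, an imprinted gene of expanding fat tissue, rose by 2.54 ± 0.35, and the stem cell antigen Ly6a by 0.77 ± 0.14.

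Genes of lipid storage were among those with the largest changes. Fabp4, the fatty acid carrier of adipocytes (chr3:10204347-10208576 in mm9), had 22824, 23158 and 21182 FPKM at day 7, against 8.56, 5.42 and 4.55 FPKM at day 0. This was the largest increase among the genes called (11.64 ± 0.20, adjusted p = 1.2e-07), and at day 7 Fabp4 was the highest of the nuclear protein-coding genes. Cidec, a protein that fuses lipid droplets (chr6:113374628-113385754), had 361, 453 and 392.1 FPKM at day 7, against 0.07, 0 and 0 FPKM at day 0 (8.62 ± 0.10, adjusted p = 4e-08). Plin1, the droplet coat protein that controls lipolysis (chr7:86866050-86877662), had 294, 383.5 and 309.5 FPKM at day 7, against 0.08, 0.05 and 0.01 FPKM at day 0 (8.29 ± 0.12, adjusted p = 6.3e-08). Both droplet genes were near 0 in every day 0 library and high in every day 7 library.

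Of 20 tested lipid droplet proteins (of 21), 17 rose and 1 fell, with a median of 3.42. The lipases that empty the droplet rose with its coat: Pnpla2, which starts triglyceride breakdown, by 5.90 ± 0.15, Mgll, which ends it, by 5.93 ± 0.12, and the hormone-sensitive lipase Lipe by 4.63 ± 0.13. Plin3, a droplet protein of many cell types, fell by 0.38 ± 0.12 (adjusted p = 0.032), a call that was lost without any 1 of the day 0 libraries (adjusted p = 0.062, 0.1 and 0.067 without replicates 1, 2 and 3).

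Secreted products of fat cells rose in 14 of 16 tested members and fell in 2, with a median of 3.51, and 7 of the 16 had reached 1 FPKM at day 7 only. Adipoq, which encodes adiponectin (chr16:23146609-23158101), had 238, 299 and 260.5 FPKM at day 7, against 0.04, 0 and 0 FPKM at day 0 (8.04 ± 0.10, adjusted p = 5.2e-08). Rbp4, the retinol carrier, had 578, 912 and 793 FPKM at day 7, against 0.36, 0.38 and 0.01 FPKM at day 0 (9.24 ± 0.20, adjusted p = 2.2e-07). Retn, which encodes resistin, rose by 6.76 ± 0.12 and Cfd, which encodes adipsin, had 21.95, 38.4 and 36.3 FPKM at day 7, against 0.03, 0 and 0 FPKM at day 0.

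Fatty acid uptake split by gene: 10 of 18 tested members rose and 6 fell. Cd36, a fatty acid transporter, had 231, 188 and 194 FPKM at day 7, against 0.05, 0.01 and 0 FPKM at day 0 (7.65 ± 0.10, adjusted p = 6.1e-08). Fabp5 (5.02 ± 0.13), Acsl1, which activates fatty acids (4.06 ± 0.09), and Lpl, which frees them from lipoproteins (3.15 ± 0.11), rose too. Acsl5, a relative of Acsl1, fell by 1.64 ± 0.09. Summed, the list held 3.33%, 2.75% and 2.57% of all FPKM other than mmu-mir-703 in the day 7 libraries, against 0.111%, 0.0993% and 0.0955% in the day 0 libraries. Most of the day 7 share was Fabp4 alone, with 22824, 23158 and 21182 of the 26780, 27560 and 25160 FPKM of the list.

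Cyp2e1, a cytochrome P450 that is present in fat as well as in liver (chr7:147949638-147960874), had 1063, 1100 and 1102 FPKM at day 7, against 0.16, 0 and 0.04 FPKM at day 0 (10.00 ± 0.08, adjusted p = 1.4e-08). It and Adipoq are shown with their promoters, 250 bases before to 50 bases after the start of transcription, because both were near 0 at day 0 and hold several copies of TTGGC, the core that nuclear factor I proteins bind. The sequences are from RefSeq, build GRCm38.p6, at chr16:23146286-23146585 and chr7:140763569-140763868, both on the + strand, read 5′ to 3′. Capitals mark TTGGC on either strand, so that a copy on the other strand reads GCCAA, and copies may overlap.
Adipoq: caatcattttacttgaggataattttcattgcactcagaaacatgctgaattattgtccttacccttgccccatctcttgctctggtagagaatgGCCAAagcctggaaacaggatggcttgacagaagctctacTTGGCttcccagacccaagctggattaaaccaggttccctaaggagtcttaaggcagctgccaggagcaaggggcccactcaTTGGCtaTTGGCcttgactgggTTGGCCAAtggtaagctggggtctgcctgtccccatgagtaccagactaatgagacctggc
Cyp2e1: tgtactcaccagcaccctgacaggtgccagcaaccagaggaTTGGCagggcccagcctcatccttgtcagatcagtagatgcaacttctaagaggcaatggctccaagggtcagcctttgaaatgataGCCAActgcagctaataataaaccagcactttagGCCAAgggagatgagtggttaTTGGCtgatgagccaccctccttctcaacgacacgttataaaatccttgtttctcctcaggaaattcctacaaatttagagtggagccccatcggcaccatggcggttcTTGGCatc
The Adipoq promoter held 6 copies and the Cyp2e1 promoter 5. TTGGC was present in 46.7% of the 32851 promoters of the same length in the RefSeq table and in 50.5% of those of genes tested here. It was present in 55.2% of the 424 promoters of genes that rose by at least 2 and in 59.2% of the 343 promoters of genes that fell by at least 2. These are matches of letters, not measured binding, and 8250 of the genes tested had a promoter in the table.

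**Figure D2:**
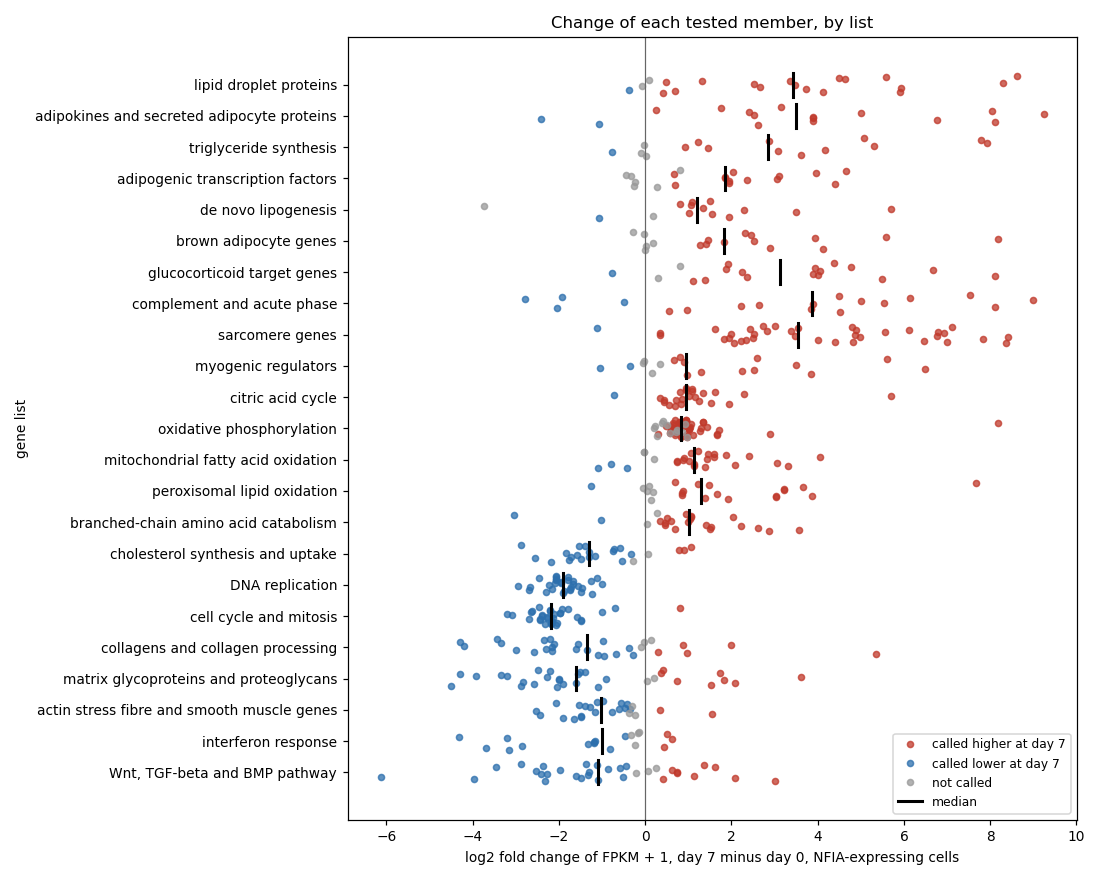
Each dot is 1 tested gene, placed by its log2 fold change, day 7 minus day 0, within its list (red, called higher; blue, called lower; grey, not called), and the black bars are list medians. Medians run from 3.87 for complement and acute phase genes to -2.17 for cell cycle genes. The grey dot at -3.73 among the lipogenesis genes is Scd1, listed at 0 in 2 day 7 libraries.

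Enzymes that make fatty acids and triglycerides rose in most cases. Of 14 tested lipogenesis genes, 11 rose and 1 fell, with a median of 1.21. Fatty acid synthase (Fasn) had 879, 1079 and 918 FPKM at day 7, against 88.6, 84.99 and 78.5 FPKM at day 0 (3.49 ± 0.11, adjusted p = 7.7e-07), and pyruvate carboxylase (Pcx), which feeds citrate for lipogenesis, rose by 5.71 ± 0.10. The lipogenic regulator Srebf1 rose by 1.95 ± 0.08, and the elongase Elovl6 fell by 1.08 ± 0.09. Scd1, the stearoyl-CoA desaturase, was listed at 0, 0 and 4056 FPKM at day 7, against 242, 198 and 194 FPKM at day 0, so no fold change is given for it.

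Triglyceride synthesis had 11 members that rose and 1 that fell of 15 tested, with a median of 2.86. Dgat2, which catalyses the last step, had 649, 896 and 756 FPKM at day 7, against 2.22, 2.56 and 2.51 FPKM at day 0 (7.80 ± 0.13, adjusted p = 1.1e-07). Gpd1, which makes the glycerol backbone, rose by 7.93 ± 0.11, Agpat2 by 5.31 ± 0.14 and Pck1 by 5.07 ± 0.08. Lpin2 fell by 0.76 ± 0.12.

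Of 17 tested genes of insulin and lipolysis signalling, 10 rose and 4 fell. The insulin-responsive glucose transporter Slc2a4 had 4.58, 5.62 and 5.32 FPKM at day 7, against 0.21, 0.1 and 0.29 FPKM at day 0 (2.36 ± 0.10). The phosphodiesterase Pde3b rose by 2.45 ± 0.13. Igf1, a growth factor, fell by 0.99 ± 0.09.

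Genes of the oxidative mitochondrion rose broadly and by smaller amounts. Of 23 citric acid cycle genes, 22 rose and 1 fell, with a median of 0.95. Of 58 nuclear genes of oxidative phosphorylation, 46 rose and 0 fell, with a median of 0.84. With every library rescaled to one sum of FPKM, 18 citric acid cycle genes rose and 1 fell (median 0.59), and 36 oxidative phosphorylation genes rose and 0 fell (median 0.51). The malate dehydrogenase Mdh1 rose by 2.30 ± 0.10, the succinyl-CoA ligase subunit Suclg1 by 1.94 ± 0.13, and cytochrome c (Cycs) by 1.66 ± 0.08. The isocitrate dehydrogenase Idh2 was the cycle gene that fell (-0.73 ± 0.14).

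Fatty acid oxidation in mitochondria had 20 members that rose and 3 that fell of 26 tested, with a median of 1.13. Acadm, the medium-chain dehydrogenase, had 432, 427 and 414 FPKM at day 7, against 50.5, 48.2 and 51.5 FPKM at day 0 (3.06 ± 0.08, adjusted p = 3.4e-07). The carrier Ucp2 rose by 3.32 ± 0.09. Oxct1, which burns ketone bodies (-0.78 ± 0.11), and the thioesterase Acot2 (-0.41 ± 0.11) were among those that fell. In the peroxisome, 16 of 22 tested genes rose and 1 fell, with a median of 1.30. The epoxide hydrolase Ephx2 had 213, 212 and 205 FPKM at day 7, against 0.12, 0 and 0 FPKM at day 0 (7.67 ± 0.08) and did not overlap between the days. Decr2, a peroxisomal reductase, fell by 1.26 ± 0.18.

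Breakdown of branched-chain amino acids rose in 19 of 23 genes and fell in 2, with a median of 1.01. The mitochondrial aminotransferase Bcat2, the form typical of fat and muscle, had 147, 162 and 135 FPKM at day 7, against 26.3, 22.5 and 21.0 FPKM at day 0 (2.62 ± 0.11). Its cytosolic counterpart Bcat1 had 5.58, 7.42 and 7.57 FPKM at day 7, against 71.8, 56.1 and 62.3 FPKM at day 0 (-3.04 ± 0.14). Neither gene had overlapping groups, and they moved in opposite directions. Aldh6a1, in valine breakdown, rose by 3.57 ± 0.09, and the amino acid importer Slc7a5 fell by 1.02 ± 0.09.

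The mRNAs made from the mitochondrial genome need care. Of 13, 9 rose by 1.78 to 2.41, among them mt-Nd2 (10371, 7718 and 8923 FPKM at day 7, against 1789, 1543 and 1716 FPKM at day 0) and mt-Cytb (2.03 ± 0.16). mt-Co1 was listed at 0 in all 3 day 7 libraries, against 6961, 5761 and 6039 FPKM at day 0, and mt-Atp8, mt-Atp6 and mt-Co3 were listed at 0 in day 7 replicate 1 while at 13447 to 48712 in the other day 7 libraries. An exact 0 can be a failed estimate, so no fold change is given for these genes, and the call that limma makes for mt-Co1 is not read as a fall.

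Genes that mark brown fat were partly present. Of 17 tested (of 27 in the list), 12 rose and 0 fell, with a median of 1.83 (3.55 with a pseudocount of 0.1 FPKM), and 9 of them had reached 1 FPKM at day 7 only. Cidea had 45.0, 52.1 and 46.8 FPKM at day 7, against 0.04, 0 and 0 FPKM at day 0 (5.59 ± 0.09, adjusted p = 8.7e-08). Cox8b, a cytochrome oxidase subunit shared with muscle, had 222, 449 and 425 FPKM at day 7, against 0.32, 0.3 and 0 FPKM at day 0 (8.19 ± 0.28). Ppargc1a, a coactivator of mitochondrial genes, had 5.27, 5.07 and 4.34 FPKM at day 7, against 0.18, 0.28 and 0.1 FPKM at day 0 (2.31 ± 0.10, adjusted p = 3.4e-06). Pdk4, which spares glucose (3.95 ± 0.09), Plin5 (4.12 ± 0.13) and the secreted factor Fgf21 (2.53 ± 0.21) rose too. Part of this list also rose in control cells, where 8 of the same 17 genes rose and 3 fell, with a median of 0.17. Cox8b and Fgf21 rose there as well, Cox8b by 5.83 ± 0.33.

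The defining brown fat genes were listed at or near 0. Ucp1, the uncoupling protein that makes heat, had 0.01, 0.05 and 0.13 FPKM at day 7 and was listed at 0 in all day 0 libraries. Prdm16 had 0.01, 0.03 and 0 FPKM at day 7 and was listed at 0 at day 0. Neither reached the level for testing, and since an exact 0 can be a failed estimate, no level is read from those zeros.

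Cholesterol synthesis fell while lipogenesis rose. Of 23 tested genes of cholesterol synthesis and uptake, 18 fell and 3 rose, with a median of -1.29. The sterol carrier gene Stard4 had 5.72, 5.74 and 4.82 FPKM at day 7, against 39.7, 35.6 and 34.6 FPKM at day 0 (-2.55 ± 0.10, adjusted p = 2e-06). Insig1, which retains the sterol sensor in the endoplasmic reticulum, rose by 1.07 ± 0.08, and Pmvk by 0.91 ± 0.16. Control cells also lowered this list, with 19 genes that fell and 2 that rose.

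Of 21 glycolytic genes, 13 rose and 4 fell, with a median of 0.61, and with the FPKM rescaled to one sum 10 rose and 6 fell, with a median of 0.25. In control cells 18 of the 21 rose and 1 fell, with a median of 1.1. The change was more negative in NFIA-expressing cells in 10 of the 21 and more positive in 3. Aldolase A (Aldoa) rose by 1.86 ± 0.11 and the regulator Pfkfb3 by 2.89 ± 0.10. The phosphofructokinase Pfkp (-1.22 ± 0.08) and hexokinase 1 (Hk1; -0.91 ± 0.12) fell.

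Genes of dividing cells fell almost as a block. Of 33 genes of the cell cycle and mitosis, 32 fell and 1 rose, with a median of -2.17, and of 30 genes of DNA replication 30 fell, with a median of -1.90. Mki67, the proliferation marker (chr7:142881471-142908062), had 8.9, 6.34 and 9.23 FPKM at day 7, against 69.6, 49.6 and 49.6 FPKM at day 0 (-2.64 ± 0.18, adjusted p = 2.6e-05). Cyclin D1 (Ccnd1) had 10.2, 11.2 and 12.4 FPKM at day 7, against 102, 101 and 103 FPKM at day 0 (-3.08 ± 0.09, adjusted p = 5.8e-07). Every day 7 library was below every day 0 library for both. The replication factor Gins2 fell by 2.94 ± 0.22 and thymidine kinase (Tk1) by 2.47 ± 0.28. The gene that rose was the transcription factor E2f2 (0.82 ± 0.21, adjusted p = 0.013).

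Inhibitors of the cell cycle were mixed, with 9 that rose and 4 that fell of 16 tested. Cdkn1a, which encodes p21, had 219, 304 and 311 FPKM at day 7, against 57.7, 71.5 and 70.0 FPKM at day 0 (2.04 ± 0.16). Ccng2 (2.23 ± 0.09) and Cdkn2c (1.48 ± 0.07) rose, and Rbl1, a relative of the retinoblastoma protein, fell by 1.87 ± 0.08. In bulk RNA such as this, fewer cells of a kind and less RNA per cell cannot be told apart.

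**Figure D3:**
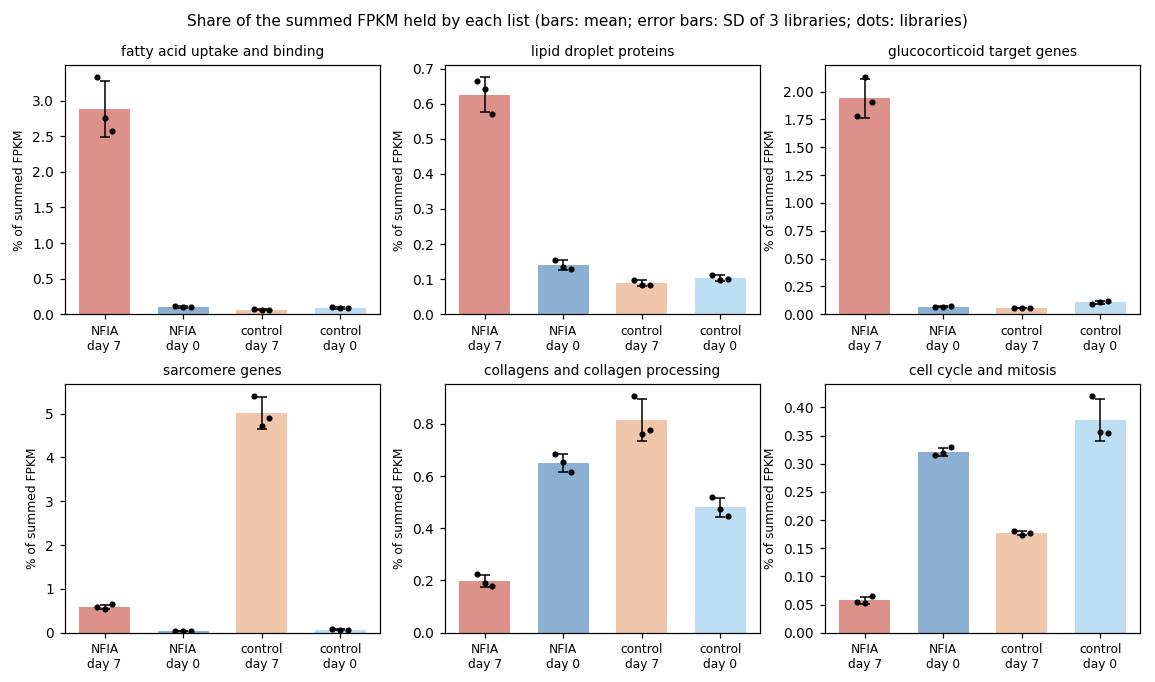
Bars give the mean share of the summed FPKM (without mmu-mir-703, in %) held by 6 lists in each group of 3 libraries, error bars the SD and dots the libraries. In NFIA-expressing cells the fatty acid uptake, lipid droplet, glucocorticoid target and sarcomere lists are higher at day 7, and the collagen and cell cycle lists lower. Fabp4 makes up most of the fatty acid uptake share in these day 7 libraries, and Mt1 and Mt2 most of the glucocorticoid target share. The sarcomere list is far higher in control cells at day 7 than in any other group.

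Muscle genes rose in NFIA-expressing cells as well. Of 37 tested sarcomere genes (of 42), 36 rose and 1 fell, with a median of 3.54 (5.75 with a pseudocount of 0.1 FPKM), and 27 of the 37 had reached 1 FPKM at day 7 only. Mylpf, the fast myosin light chain (chr7:134355122-134357812), had 2073, 2408 and 2977 FPKM at day 7, against 7.03, 5.29 and 7.24 FPKM at day 0 (8.36 ± 0.17, adjusted p = 1.6e-07). Skeletal alpha-actin (Acta1) had 443, 603.5 and 579 FPKM at day 7, against 0.78, 0.41 and 0.6 FPKM at day 0 (8.40 ± 0.15, adjusted p = 1.2e-07). Both were thus among the largest increases, beside the adipocyte genes. The sarcomere list held 0.58%, 0.549% and 0.648% of the FPKM at day 7, against 0.0439%, 0.0429% and 0.0416% at day 0. Tpm3, a tropomyosin of slow muscle and many other cells, was the member that fell (-1.11 ± 0.11).

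The promoter of Mylpf is shown because it holds CAGCTG, an E-box of the kind that Myod1 and Myog bind, in capitals. It is from RefSeq, build GRCm38.p6, chr7:127211358-127211657, + strand, 5′ to 3′. CAGCTG reads the same on both strands. The Adipoq promoter printed above holds CAGCTG as well, not in capitals there, so this E-box does not set Mylpf apart from it.
Mylpf: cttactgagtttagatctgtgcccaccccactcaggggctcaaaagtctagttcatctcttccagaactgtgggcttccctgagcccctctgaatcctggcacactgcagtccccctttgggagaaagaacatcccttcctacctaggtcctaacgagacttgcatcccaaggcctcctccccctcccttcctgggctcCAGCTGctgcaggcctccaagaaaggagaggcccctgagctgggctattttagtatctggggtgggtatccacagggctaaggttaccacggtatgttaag
The E-box was present in 16.3% of all promoters in the table and in 15.1% of those of genes tested. Its share was 23.3% for genes that rose by at least 2 and 16.6% for genes that fell by at least 2.

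The regulators of muscle formation did not move as a block. Of 18 tested, 12 rose and 2 fell, with a median of 0.94, or 0.60 with the FPKM rescaled to one sum. Myog (chr1:136186581-136189124) had 104, 149 and 196 FPKM at day 7, against 0.47, 0.57 and 0.81 FPKM at day 0 (6.50 ± 0.23, adjusted p = 1.2e-06). Myod1 had 10.2, 16.2 and 22.9 FPKM at day 7, against 11.8, 12.7 and 11.5 FPKM at day 0, groups that overlap, and it was not called (0.35 ± 0.26, adjusted p = 0.27). Myf5 had 5.69, 4.82 and 5.43 FPKM at day 7, against 3.11, 2.72 and 3.12 FPKM at day 0 (0.66 ± 0.09, adjusted p = 0.00081). The fusion protein gene Tmem8c, now called Mymk, rose by 5.60 ± 0.20, and Eya4 fell by 1.03 ± 0.12. Myod1 was called higher without day 7 replicate 1 (adjusted p = 0.012) and in the libraries of the later header date alone (0.63, adjusted p = 0.025).

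The fibrous matrix fell. Of 29 tested collagens and collagen-processing genes, 21 fell and 5 rose, with a median of -1.34, and of 31 tested matrix glycoproteins and proteoglycans 21 fell and 8 rose, with a median of -1.61. Col1a1, of type I collagen (chr11:94797538-94814356), had 13.3, 12.9 and 9.94 FPKM at day 7, against 261, 233 and 218 FPKM at day 0 (-4.20 ± 0.13, adjusted p = 7.4e-07). Its partner Col1a2 fell by 3.43 ± 0.10, and the cross-linking enzymes Lox and Loxl3 by 3.34 ± 0.12 and 4.29 ± 0.17. Postn, which encodes periostin (chr3:54165031-54194961), had 28.9, 22.5 and 18.6 FPKM at day 7, against 498, 475 and 440.5 FPKM at day 0 (-4.30 ± 0.16, adjusted p = 1.6e-06). Fibromodulin (Fmod) fell by 4.51 ± 0.10 and elastin (Eln) by 3.34 ± 0.16.

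Some members of these lists rose. Col15a1 had 54.3, 50.6 and 42.0 FPKM at day 7, against 0.33, 0.12 and 0.2 FPKM at day 0 (5.36 ± 0.12, adjusted p = 2.8e-07). Col4a1 rose by 1.98 ± 0.08, and the laminin chains Lama4 and Lamb1 by 3.62 ± 0.11 and 2.09 ± 0.10. Col6a1 had 332, 370.0 and 323 FPKM at day 7, against 366, 381 and 347 FPKM at day 0, and was not called (adjusted p = 0.42). With the FPKM rescaled to one sum it was called lower (adjusted p = 0.0076). Of 18 tested proteases and inhibitors, 10 fell and 4 rose (2 with the FPKM rescaled to one sum): the inhibitor Timp1 fell by 3.22 ± 0.15 and the plasminogen activator Plat by 2.99 ± 0.09, while the protease Mmp19 rose by 1.47 ± 0.10. Of 24 actin and smooth muscle genes, 19 fell and 2 rose, among them Actg2 (-2.54 ± 0.14), Cnn2 (-2.44 ± 0.07) and, of those that rose, Tpm2 (1.55 ± 0.14).

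Secreted regulators of the Wnt, TGF-beta and BMP pathways fell in 21 of 33 tested members and rose in 9, with a median of -1.09. Sfrp2, a secreted Wnt modulator (chr3:83570243-83593878), had 7.52, 8.98 and 5.96 FPKM at day 7, against 603, 637 and 521 FPKM at day 0. No gene measured above 0 on both days fell by more (-6.12 ± 0.15, adjusted p = 3.4e-07). Its relative Sfrp1 rose by 3.02 ± 0.08. Bmp4, a growth factor that can commit precursors to fat, had 5.46, 6.96 and 6.31 FPKM at day 7, against 110.2, 113 and 111 FPKM at day 0 (-3.96 ± 0.10). The numbers of TTGGC copies per promoter were not compared between genes that rose and genes that fell. By presence, the share was 59.2% for genes that fell by at least 2 and 55.2% for genes that rose by at least 2. The Sfrp2 promoter, shown as an example from a gene that fell, held 2 copies, in capitals (RefSeq, build GRCm38.p6, chr3:83766071-83766370, + strand, 5′ to 3′).
Sfrp2: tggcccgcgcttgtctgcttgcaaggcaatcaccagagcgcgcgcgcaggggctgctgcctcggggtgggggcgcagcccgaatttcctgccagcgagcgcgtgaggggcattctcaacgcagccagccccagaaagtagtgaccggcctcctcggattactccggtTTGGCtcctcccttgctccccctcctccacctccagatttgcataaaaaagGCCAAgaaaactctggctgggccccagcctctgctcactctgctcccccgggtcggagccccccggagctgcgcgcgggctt

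Most tested members of the interferon-response list fell. Of 18 tested (of 26), 11 fell and 3 rose, with a median of -0.99. Outside the list, Ifi27l2a, by its name an interferon-inducible gene, rose by 7.39 ± 0.23 (adjusted p = 7.6e-07). It had 543, 882 and 764 FPKM at day 7, against 2.36, 4.33 and 3.39 FPKM at day 0. Ifit1, an antiviral RNA-binding protein (chr19:34715361-34724499), had 0.22, 0.17 and 0.12 FPKM at day 7, against 20.9, 22.1 and 23.4 FPKM at day 0 (-4.31 ± 0.08, adjusted p = 1.5e-07). Isg15, a ubiquitin-like protein, fell by 3.68 ± 0.21, and Ifit3 by 3.21 ± 0.09. Ifi35 rose by 0.62 ± 0.18 (adjusted p = 0.023). With the FPKM rescaled to one sum this increase was not called (adjusted p = 0.091), and 14 members fell and 0 rose. The Ifi35 call was also lost without day 0 replicate 1, day 7 replicate 2 or day 7 replicate 3 (adjusted p = 0.061, 0.076 and 0.076). The Ifit1 promoter is shown because it holds the core of interferon response elements, here GAAA, any 2 bases, and GAAA again, searched on both strands (RefSeq, build GRCm38.p6, chr19:34640639-34640938, + strand, 5′ to 3′). Capitals mark the 2 matches, both on the other strand, where GAAA reads TTTC.
Ifit1: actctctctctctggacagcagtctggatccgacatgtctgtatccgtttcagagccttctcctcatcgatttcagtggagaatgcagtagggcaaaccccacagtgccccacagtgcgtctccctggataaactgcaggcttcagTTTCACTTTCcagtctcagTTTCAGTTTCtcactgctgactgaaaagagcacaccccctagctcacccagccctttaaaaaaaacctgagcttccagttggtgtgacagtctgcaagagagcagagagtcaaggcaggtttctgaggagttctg
This motif was present in 3.44% of all promoters in the table and in 2.88% of those of genes tested. Its share was 2.36% for genes that rose by at least 2 and 7.0% for genes that fell by at least 2.

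Of 18 tested chemokines and cytokines, 11 fell and 4 rose, with a median of -1.07. Ccl5 had 0.06, 0.37 and 0.46 FPKM at day 7, against 19.9, 28.5 and 25.8 FPKM at day 0 (-4.31 ± 0.17). The neutrophil attractant Cxcl5 fell by 3.04 ± 0.14 and the macrophage growth factor Csf1 by 1.47 ± 0.11. Complement and acute phase genes moved the other way, with 14 that rose and 4 that fell of 18 tested and a median of 3.87, and 9 of the 18 had reached 1 FPKM at day 7 only. Complement C3 had 637.5, 569.5 and 512 FPKM at day 7, against 0.19, 0.11 and 0.07 FPKM at day 0 (8.99 ± 0.10, adjusted p = 4e-08). C4b, which shares most of its sequence with C4a, rose by 7.53 ± 0.12, the acute phase protein Orm1 by 5.54 ± 0.10 and the lipocalin Lcn2 by 8.12 ± 0.12, while ceruloplasmin (Cp) fell by 2.04 ± 0.10.

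Targets of the glucocorticoid receptor rose in 15 of 18 tested members and fell in 1, with a median of 3.12. The metallothionein Mt2 had 6208, 9865 and 8600 FPKM at day 7, against 63.8, 79.5 and 95.0 FPKM at day 0 (6.67 ± 0.22, adjusted p = 9.1e-07), and after Fabp4 it was the highest nuclear protein-coding gene at day 7. Mt1 rose by 5.50 ± 0.20, the receptor's chaperone Fkbp5 by 4.38 ± 0.16, Tsc22d3 by 4.05 ± 0.11 and glutamine synthetase (Glul) by 4.78 ± 0.10. Sgk1, another known target, fell by 0.77 ± 0.07. Whether the medium held a glucocorticoid at either day is not given in the sources used here.

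Of 36 antioxidant and detoxification enzymes, 20 rose and 10 fell, with a median of 0.68, and with the FPKM rescaled to one sum 19 rose and 14 fell, with a median of 0.33. Beside Cyp2e1, Cyp2f2 (8.36 ± 0.10), the glutathione transferase Gsta3 (7.45 ± 0.11) and catalase (Cat; 3.03 ± 0.08) rose, and the glutathione transferase Gstt1 fell by 2.31 ± 0.12. Of 24 genes of the ATF4 and stress responses, 14 fell and 5 rose. Hspa5, the chaperone of the endoplasmic reticulum, had 309, 282 and 290.1 FPKM at day 7, against 820.1, 784 and 821 FPKM at day 0 (-1.46 ± 0.09), and Ddit4 rose by 1.51 ± 0.14. Atf4 itself was not called (-0.20 ± 0.16, adjusted p = 0.33), but was called lower with the replicate number as a block (adjusted p = 0.013). Ribosomal protein genes, 39 in all, gave 1 that rose and 4 that fell, with a median of -0.14. With the FPKM rescaled to one sum 32 fell (median -0.49), with the replicate number as a block 17 fell and 3 rose, and without day 0 replicate 1 8 fell.

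Outside the lists, genes with large decreases included Stmn2, which binds tubulin (-4.95 ± 0.19), Penk, the precursor of enkephalin (-4.31 ± 0.16), and Adamtsl3 (-4.34 ± 0.12). Among the most abundant nuclear genes, S100a4, a calcium-binding protein of motile cells, had 1015, 1315 and 1262 FPKM at day 7, against 8446, 9594 and 9017 FPKM at day 0 (-2.92 ± 0.15). Galectin 1 (Lgals1) fell by 1.52 ± 0.17 and vimentin (Vim) by 1.11 ± 0.15, while the acyl-CoA carrier Dbi rose by 2.35 ± 0.14.

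Markers of other cell types were mostly listed at low values or at 0, and an exact 0 can be a failed estimate, so no absence is read from it. Of 10 immune markers, 4, among them Ptprc, Cd3e and Emr1, were listed at 0 in all 6 libraries, and their summed FPKM was 13.1 to 16.6 at day 7, against 10.3 to 12.9 at day 0. Within that sum Cd68, a lysosomal protein of macrophages, had 11.1, 14.0 and 12.5 FPKM at day 7, against 1.88, 2.49 and 2.24 FPKM at day 0 (2.08 ± 0.12), and Cd14 fell by 1.38 ± 0.13. The endothelial marker Pecam1 was at most 0.1 FPKM, the epithelial marker Epcam and the glial marker Sox10 at most 0.01, and haemoglobin Hbb-b1 was listed at 0. Single markers of these lists that fell were Flt1 (-0.92 ± 0.10), Krt14 (-3.08 ± 0.08), Tubb3 (-1.73 ± 0.19) and, among bone and cartilage genes, Runx2 (-1.57 ± 0.09), while Alpl rose (2.17 ± 0.34). In all, 1 of 2 tested epithelial markers rose and 1 fell, and 3 of 6 tested bone and cartilage markers rose and 2 fell. Summed, endothelial markers had 4.48 to 4.85 FPKM at day 7, against 8.73 to 10.6 FPKM at day 0, epithelial markers 1.73 to 2.66 FPKM against 9.38 to 10.7 FPKM, and nerve and glia markers 3.26 to 5.17 FPKM against 11.7 to 15.2 FPKM. The part of these cell types in the results above was not tested. 

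The control cells were used to ask which changes over time differed with NFIA. In control cells, which share no library with the comparison above, 3065 of the same 13255 genes rose (23.1%) and 3242 fell (24.5%), in all 47.6%. These genes were chosen by their level in NFIA-expressing cells, and genes expressed in control cells alone were left out. The shares called are therefore not compared between the 2 kinds of cells. Of the genes that rose in NFIA-expressing cells, 1599 also rose in control cells and 408 fell there. Of the genes that fell in NFIA-expressing cells, 1889 also fell in control cells and 621 rose there. The change itself differed between the 2 kinds of cells in 5843 genes (44.1%) by the interaction term of limma, 2686 with a more positive change in NFIA-expressing cells (20.3%) and 3157 with a more negative one (23.8%).

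The principal components of the 12 libraries were taken over the same 13255 genes, which leaves out genes expressed in control cells alone. The variance shares and distances hold for that set only. On the first component, which held 52.1% of the variance, NFIA-expressing cells lay at 89.15 to 95.94 at day 7 and at -39.6 to -36.77 at day 0. Control cells lay at -6.94 to -3.91 at day 7 and at -52.28 to -45.57 at day 0. The second, with 27.4%, set control cells at day 7 apart, at -70.4 to -64.51. Day 7 thus lay apart from day 0 in both kinds of cells, and the day 7 groups lay apart from each other.

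Adipocyte genes had larger changes in NFIA-expressing cells than in control cells. Of 20 lipid droplet proteins, 14 had a more positive change in NFIA-expressing cells and 1 a more negative one, and the list's median was 3.42 in NFIA-expressing cells and 0.10 in control cells. The largest positive differences among genes called in both tests were those of Fabp4, Cyp2e1, Rbp4, C3, Cidec and Plin1. The change of Fabp4 was 11.64 ± 0.20 in NFIA-expressing cells and 0.70 ± 0.42 in control cells, a difference of 10.95 ± 0.59 (adjusted p = 8.7e-08). Pparg rose in NFIA-expressing cells and fell by 0.91 ± 0.10 in control cells, where it averaged 2.22 ± 0.162 FPKM at day 7 and 5.10 ± 0.852 FPKM at day 0 (SD, n = 3 each), a difference of 2.75 ± 0.14 (adjusted p = 5.9e-08). For Cebpa the difference was 2.88 ± 0.34 (adjusted p = 4.5e-05).

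Some genes of lipid uptake rose in both kinds of cells. Lpl rose by 3.15 ± 0.11 in NFIA-expressing cells and by 2.95 ± 0.09 in control cells, and its difference of 0.20 ± 0.13 was not called (adjusted p = 0.25). Cd36 rose by 7.65 ± 0.10 in NFIA-expressing cells and by 4.01 ± 0.09 in control cells, where it averaged 16.3 ± 0.615 FPKM at day 7, a difference of 3.64 ± 0.12 (adjusted p = 2.3e-09). Fabp5 rose in NFIA-expressing cells and fell by 2.29 ± 0.14 in control cells. Glucocorticoid targets divided the cells likewise: 15 of 18 had a more positive change in NFIA-expressing cells, and Mt2 fell by 1.15 ± 0.27 in control cells (difference 7.82 ± 0.39, adjusted p = 4.4e-08).

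**Figure D4:**
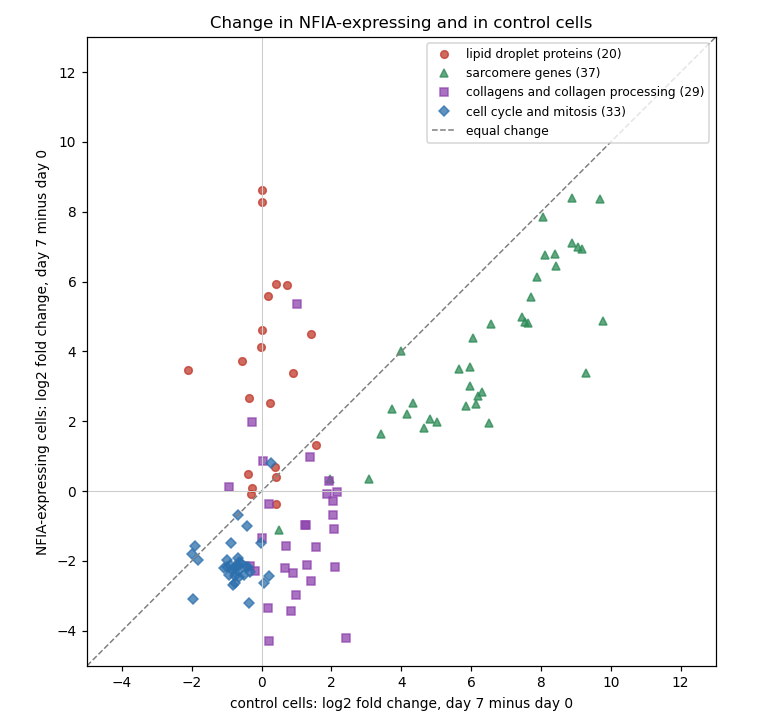
Each point is 1 tested gene of 4 lists, with its log2 fold change from day 0 to day 7 in NFIA-expressing cells (vertical) and in control cells (horizontal), and the dashed line marks equal change. Most lipid droplet genes lie high and near 0 on the horizontal axis, sarcomere genes lie to the right and mostly under the line, collagens lie under it with many above 0 in control cells and below 0 in NFIA-expressing cells, and all but 1 of the cell cycle genes lie below 0 in NFIA-expressing cells.

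The sarcomere genes rose in both kinds of cells, and by less in NFIA-expressing cells. All 37 rose in control cells, with a median of 6.32, against a median of 3.54 in NFIA-expressing cells, and 34 of the 37 had a more negative change with NFIA and 0 a more positive one. With a pseudocount of 0.1 in place of 1 FPKM, 26 were more negative and 1 more positive. The list held 4.71% to 5.41% of the FPKM in control cells at day 7. Mylpf averaged 21707 ± 465 FPKM in control cells at day 7 and 25.3 ± 2.16 at day 0 (SD, n = 3 each), a change of 9.70 ± 0.15 there, and its difference was -1.33 ± 0.21 (adjusted p = 0.00038). For Acta1 the difference was -0.48 ± 0.21 and was not called (adjusted p = 0.094), and its sign turned with a pseudocount of 0.1 (0.48, adjusted p = 0.22).

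Myog rose by 6.50 ± 0.23 in NFIA-expressing cells and by 6.49 ± 0.23 in control cells (difference 0.01 ± 0.32, adjusted p = 0.99). Its levels were not equal: control cells averaged 565 ± 97.4 FPKM at day 7 and 5.31 ± 1.28 at day 0 (SD, n = 3 each), both above the NFIA-expressing cells. The NFIA-expressing day 0 libraries had 0.47, 0.57 and 0.81 FPKM, below the pseudocount of 1 FPKM. The change of Myog is understated more in those cells, so its difference near 0 does not mean an equal ratio of FPKM. Of the 18 muscle regulators, 8 had a more negative change in NFIA-expressing cells and 3 a more positive one, but 4 and 5 with the pseudocount of 0.1, so no direction is given for the list. The largest negative differences in muscle genes were those of Tnnc2, Cav3 and Cox6a2. The troponin Tnnc2 had 136, 179.7 and 208 FPKM in NFIA-expressing cells at day 7, against 13.8, 16.9 and 16.5 at day 0, while control cells averaged 1599 ± 179 FPKM at day 7 and 1.55 ± 0.439 at day 0 (SD, n = 3 each).

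**Figure D5:**
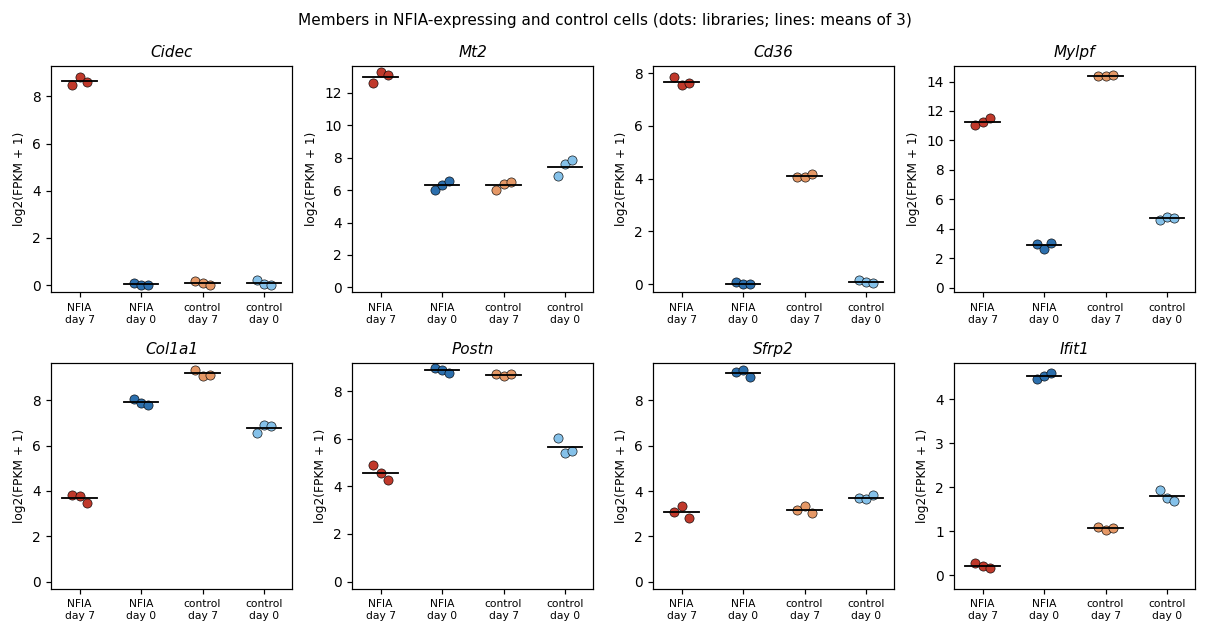
Each dot is 1 library and each line the mean of 3, on an axis of log2(FPKM + 1), for 8 genes in NFIA-expressing cells at day 7 and day 0 and in control cells at day 7 and day 0. Cidec and Mt2 are highest in NFIA-expressing cells at day 7, Mylpf is highest in control cells at day 7, Col1a1 and Postn move in opposite directions in the 2 kinds of cells, and Sfrp2 and Ifit1 are highest in NFIA-expressing cells at day 0.

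Matrix genes went opposite ways. In control cells 20 of the 29 collagen genes rose and 3 fell (median 1.02), against 5 that rose and 21 that fell in NFIA-expressing cells, and 25 had a more negative change with NFIA. Col1a1 averaged 582 ± 58.8 FPKM in control cells at day 7 and 109 ± 14.6 at day 0 (SD, n = 3 each), so it rose there by 2.41 ± 0.14 and differed by -6.61 ± 0.20 (adjusted p = 1e-09). Postn rose by 3.07 ± 0.18 in control cells, a difference of -7.36 ± 0.25 (adjusted p = 2.5e-09). Col6a1, not called in NFIA-expressing cells, rose by 1.88 ± 0.10 in control cells (difference -1.98 ± 0.15, adjusted p = 1.2e-06).

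Some of the decreases began from levels that control cells did not have at day 0. Sfrp2 averaged 8.12 ± 0.942 FPKM in control cells at day 7 and 12.04 ± 0.854 at day 0 (SD, n = 3 each), so that NFIA-expressing cells at day 7, with 7.49 ± 1.51 FPKM, were close to control levels, and at day 0, with 587 ± 59.7 FPKM, were far above them. Ifit1 averaged 1.11 ± 0.05 FPKM in control cells at day 7 and 2.50 ± 0.338 at day 0, and its difference was -3.58 ± 0.12 (adjusted p = 2e-09). Igf1 fell in NFIA-expressing cells and rose by 3.55 ± 0.13 in control cells, where it averaged 19.1 ± 1.59 FPKM at day 7 and 0.737 ± 0.317 at day 0 (SD, n = 3 each).

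Division genes fell in both kinds of cells. Of the 33 cell cycle genes, 28 fell in control cells with a median of -0.69, against 32 with a median of -2.17 in NFIA-expressing cells, and 26 had a more negative change with NFIA and 0 a more positive one. Mki67 averaged 35.2 ± 7.67 FPKM in control cells at day 7 and 61.6 ± 21.2 at day 0 (SD, n = 3 each), with a difference of -1.88 ± 0.34 (adjusted p = 0.0011). Of the 58 genes of oxidative phosphorylation, 24 rose in control cells and 0 fell, and 12 had a more positive change with NFIA and 3 a more negative one. These counts were 23 and 4 with the replicate number as a block, and 34 and 3 in libraries of the later header date alone. No comparison with all genes is therefore made for this list. Fgf21 rose by 2.53 ± 0.21 in NFIA-expressing cells and by 5.79 ± 0.20 in control cells (difference -3.26 ± 0.28, adjusted p = 3.5e-06).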

How the data were processed

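RNA of C2C12 myoblasts was extracted with Trizol and RNeasy Mini columns and polyA libraries were made with the TruSeq Stranded mRNA kit, per the labels' protocols. The deposited values are FPKM per gene. For them the authors used TopHat, Cufflinks and the mm9 build, as the submitters' processing notes list. Of versions, annotation, strand use and read totals the sources used here give none, so reads of a gene and an antisense partner may not be separated. The tables held 37305 entries, of which 264 were merged into an entry of the same symbol at an overlapping locus, leaving 37041 genes.

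Groups were taken from the labels. log2(FPKM + 1) was fitted with limma 3.58.1 in R 4.3.3 with a variance trend, on the 6 NFIA-expressing libraries with the treatment labelled as none, for the 13255 genes with at least 1 FPKM in at least 3 of them. The 12 libraries with control cells gave the control change and the interaction. P-values are two-sided and adjusted by Benjamini-Hochberg over all genes tested, and the fold change on this scale understates the change of low genes. The code was tested on simulated data. Tables and figures were made with Python 3.11.15, pandas 2.3.3, numpy 2.4.6 and matplotlib 3.10.9.

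Genes were named by rule: 20 fixed genes, up to 6 called members of each list with the largest changes, up to 2 against the list's direction, up to 3 not called, and the largest or most abundant genes over all. Some named genes are not reported here. The members and lists were chosen with earlier results of these data known. Loci are those of the deposited tables (mm9), and promoters are from RefSeq (GRCm38.p6), matched by symbol.

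Replicates 2 and 3 carry their number in the labels and replicate 1 does not, and the file header of replicate 1 carries an earlier date. What that date stands for is not given in the sources used here. Deviations from the group means correlated at 0.429, 0.239 and 0.209 between same-numbered libraries of the 2 days, and at -0.31 to 0.153 between others. The main tests did not pair the libraries, and the replicate number entered as a block in an alternative fit only. The earlier date held 1 library of each C2C12 group used here and so gives no value of its own. Alternatives were other pseudocounts, filters, scalings, fits and libraries left out. Leaving out libraries, the replicate block and the scalings were run for counts over all genes, named genes' changes and list counts and medians. Of the alternatives, 2 were added after seeing the data: a term for the header date and the rescaling to one sum without mmu-mir-703.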

Additional observations from a re-analysis of the deposited data

Results flagged for a closer look

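The change from day 0 to day 7 differed between NFIA-expressing and control cells in 5843 of 13255 genes by the interaction term of limma, each at an adjusted p under 0.05. Among genes also called in NFIA-expressing cells, those with the most positive difference on the log2 scale, NFIA-expressing minus control, were Fabp4 (10.95), Cyp2e1 (9.73), Rbp4 (8.96), C3 (8.93), Cidec (8.61) and Plin1 (8.28). In each of these 6, day 0 libraries of both kinds of cells and day 7 control libraries were low, and day 7 NFIA-expressing libraries high.

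The most negative differences were those of Postn (-7.36), Col1a1 (-6.61), Tnnc2 (-5.92), Cav3 (-5.89), Mfap5 (-5.70) and Cox6a2 (-5.67). Postn, Col1a1 and the microfibril protein gene Mfap5 fell in NFIA-expressing cells and rose in control cells. Mfap5 had 0.28, 0.48 and 0.51 FPKM in NFIA-expressing cells at day 7, against 7.5, 4.69 and 9.12 FPKM at day 0, and averaged 21.7 FPKM in control cells at day 7 and 1.41 FPKM at day 0.

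The muscle genes Tnnc2, Cav3 and Cox6a2 rose in both. Cav3, the caveolin of muscle, had 2.0, 2.65 and 2.27 FPKM in NFIA-expressing cells at day 7, against 1.22, 1.52 and 1.15 FPKM at day 0, and averaged 89.6 FPKM in control cells at day 7 and 0.06 FPKM at day 0. Cox6a2, the muscle form of a cytochrome oxidase subunit, had 5.69, 11.3 and 10.8 FPKM in NFIA-expressing cells at day 7, against 3.58, 4.86 and 5.56 FPKM at day 0 (0.82, adjusted p = 0.03). That call was lost without any 1 of 4 libraries: day 7 replicates 2 and 3 (adjusted p = 0.094 each) and day 0 replicates 1 and 2 (adjusted p = 0.086 and 0.061).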

How the results depend on the processing

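Against a minimum of 2-fold in place of any change, limma called 1876 genes over time in NFIA-expressing cells, 960 that rose and 916 that fell, with 1349 interactions and 561 control changes. With the FPKM rescaled to one sum without mmu-mir-703, an alternative chosen after seeing the data, 2431 genes rose and 6491 fell. With the replicate block, 9744 genes were called in NFIA-expressing cells, 4675 that rose and 5069 that fell, and among named genes the block changed only the calls of Cebpd, Nfix and Atf4. Leaving out 1 library at a time gave 7072 to 8227 called genes, 3289 to 4141 that rose and 3679 to 4086 that fell, with 5216 to 6242 interactions and 5227 to 6369 control changes. The signs that turned were those of Nfib (-0.18 with one sum, and -0.064 to 0.32 on leaving out 1 library), of the Acta1 difference (0.48 with pseudocount 0.1) and of the Myog difference (-0.21 to 0.25 on leaving out 1 library), none of them called, and the cause was not tested. Nfix, Col6a1 and Atf4 were also called lower with one sum (adjusted p = 0.013, 0.0076 and 0.0028), and Atf4 with quantile normalization (adjusted p = 0.019). The Acta1 difference was called with one sum (-0.45, adjusted p = 0.028). Calls were lost for mt-Cytb with all 18 C2C12 libraries in 1 fit (adjusted p = 0.5), and for Plin3 and Cox6a2 with no filter on low values (adjusted p = 0.051 and 0.066). With one sum, 33 of 36 list medians moved by more than the spread between replicates. Against the minimum of 2-fold, 6 of 58 oxidative phosphorylation genes rose, and 9 of 33 cell cycle genes had a more negative change with NFIA. Over all alternatives, 3350 values of named changes kept direction and call, 53 lost the call, 15 gained it and 2 turned. Read totals are unknown, so the precision of low values cannot be given.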
